A study of Homo sapiens with 4 samples.

Results

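PRSS35, TMEM119, OLFML3 and RANBP3L were nearly lost from U87 cells that carried a short hairpin RNA against PTPRN. Their FPKM values (reads of a gene scaled to transcript length and library depth) in those cells were 0.834% to 1.94% of the values in cells with a scrambled hairpin. The 4 genes were picked by symbol from the 19314 genes listed by the authors, because they had large falls in this comparison. Their own fall is therefore given as a description, with no test. U87 is an established human malignant glioma line. From the library titles, the group PTP2 is read as carrying shPTPRN-2, and the group SCR as carrying the scrambled hairpin. Both hairpins were delivered in the plasmid pLKO.1, and each group had 2 RNA libraries, numbered 1 and 2. The time between hairpin delivery and RNA collection is not given in the sources used here, nor is whether the cells were a pool or a clone. The knockdown rests on 1 hairpin, because the series holds 4 libraries and both PTP2 libraries are read as carrying shPTPRN-2. The labels of all libraries name U87 as the cell line, while their growth text names hCMEC/D3, a brain endothelial line.

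The 4 genes code for unrelated proteins. PRSS35 is a secreted protein with a serine protease fold, related to PRSS23. TMEM119 is a single-pass membrane protein that is widely used as a marker of microglia and that promotes osteoblast differentiation in bone. OLFML3 is a secreted glycoprotein with an olfactomedin domain. It was described as a scaffold that brings tolloid-type proteases such as BMP1 to the BMP inhibitor chordin, and it is also enriched in microglia. RANBP3L is a Ran-binding protein that exports SMAD1, SMAD5 and SMAD9 from the nucleus and so ends BMP signalling. In this pathway BMP ligands bind receptor kinases, the receptors phosphorylate these SMADs, and the SMADs enter the nucleus to switch on targets such as the ID genes.

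The targeted gene PTPRN had FPKM values of 84.8 and 85.0 in SCR 1 and 2 and of 12.1 and 11.7 in PTP2 1 and 2, so that 14% of the SCR level was left. Steps in the low FPKM values gave an estimated depth of 17300000 to 18900000 mapped reads per library. Log2 FPKM values of replicate libraries correlated across genes with Pearson's r of 0.999, against 0.961 to 0.962 between the groups. The labels do not say whether replicates came from separate cultures, so that p-values measure only the spread between these libraries. In bulk RNA, fewer cells of a type and less RNA per cell cannot be told apart.

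The hairpin target and the guide strand that is complementary to it are shown because a guide can also act on other transcripts through its seed. Capitals mark the seed, bases 2 to 8 of the guide, and the site that pairs with it in the target. Both are written 5′ to 3′.
shPTPRN-2 target: aactgcctccaagGGCATATt
guide strand: aATATGCCcttggaggcagtt
The seed site, GGCATAT, was counted in the longest protein-coding GENCODE transcript of each gene. It occurred 0 times in the transcripts of PRSS35, TMEM119, OLFML3 and RANBP3L, and 1 time in PTPRN, in the target itself. Of 19702 genes, 11.3% had it anywhere in that transcript, and 6.55% of 19553 genes had it in the 3′ untranslated region. The best ungapped match to the 21-base target had 9 mismatches in PRSS35 and 8 in each of TMEM119, OLFML3 and RANBP3L. These counts describe the letters only, for the transcripts searched.

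PRSS35 (Gene ID 167681) was the most abundant of the 4 in the control cells. It had FPKM values of 123 and 124 in SCR and of 2.32 and 2.47 in PTP2. Its mean was 123.5 ± 0.361 (SD, n = 2) in SCR and 2.40 ± 0.106 (SD, n = 2) in PTP2, a ratio of 51.6, and the log2 fold change on the log2(FPKM + 1) scale was -5.20. Both replicates of each group sat close together, and the groups lay far apart. Behind the PTP2 values stood an estimated 105 and 111 reads, against 6058 and 5593 in SCR.

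TMEM119 (Gene ID 338773) had FPKM values of 101 and 98.6 in SCR and of 1.34 and 2.29 in PTP2. The mean was 99.7 ± 1.51 (SD, n = 2) in SCR and 1.82 ± 0.672 (SD, n = 2) in PTP2, a ratio of 54.9 and a log2 fold change of -5.18. The PTP2 libraries differed from each other by a factor of 1.71, with PTP2 1 the lower, at an estimated 63 and 107 reads. This spread within PTP2 was small beside the distance to either SCR library.

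OLFML3 (Gene ID 56944) had FPKM values of 34.8 and 32.4 in SCR and of 0.19 and 0.37 in PTP2. The mean was 33.6 ± 1.67 (SD, n = 2) in SCR and 0.28 ± 0.127 (SD, n = 2) in PTP2, a ratio of 120 and a log2 fold change of -4.76. Again PTP2 1 was the lower of the replicates, by a factor of 1.95. The PTP2 values rest on an estimated 7 and 13 reads, the fewest of the 4 genes, so that counting error alone is large there.

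RANBP3L (Gene ID 202151) had FPKM values of 28.2 and 27.3 in SCR and of 0.24 and 0.25 in PTP2. The mean was 27.7 ± 0.629 (SD, n = 2) in SCR and 0.245 ± 0.00707 (SD, n = 2) in PTP2, a ratio of 113 and a log2 fold change of -4.53. The PTP2 replicates were nearly equal, at an estimated 20 reads in each library. That estimate used the longest transcript listed by the authors, 4701 bases, and a shorter transcript would give fewer reads. In each of the 4 genes, the lowest SCR value stood above the highest PTP2 value, which follows from how the genes were chosen.

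The order of the 4 genes depended on how small values were treated. On the log2(FPKM + 1) scale PRSS35 and TMEM119 had the larger differences, and they were too close to be ranked, since TMEM119 ran from -5.43 to -4.94 when 1 library was left out. With a pseudocount of 0.1 in place of 1 the order turned around, with log2 fold changes of -6.51 for OLFML3, -6.33 for RANBP3L, -5.75 for TMEM119 and -5.63 for PRSS35. A pseudocount of 1 is larger than the PTP2 values of OLFML3 and RANBP3L, so that it understates their change. When only genes whose higher group averaged 10 FPKM or more were kept, the 4 genes ranked 1 to 4 by log2 fold change, followed by LUM at -4.46 and CNN1 at -4.34. LUM codes for the collagen-binding proteoglycan lumican, and CNN1 for calponin of smooth muscle. By the plain ratio of means, for genes averaging 10 FPKM or more in SCR, MAGEB17 (753) and RCAN2 (580) came first. Their PTP2 means were only 0.02 and 0.025 FPKM, so that these ratios are very uncertain. OLFML3 and RANBP3L were then in places 3 and 4, TENM2 (99.8) in place 5, and TMEM119 and PRSS35 in places 6 and 7.

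In the control cells all 4 genes were well expressed. By mean FPKM in SCR, counted from the highest of 16595 genes, PRSS35 had rank 507, TMEM119 rank 670, OLFML3 rank 2304 and RANBP3L rank 2740. In PTP2 their ranks were 9865, 10327, 12516 and 12668. The order of the 4 genes by level was thus the same in both groups. In SCR each neighbouring pair in this order was separated by more than the spread between replicates. In PTP2 the highest TMEM119 value (2.29) lay just under the lowest PRSS35 value (2.32), and the values of RANBP3L lay between those of OLFML3, so that neither pair differed beyond the replicate spread there.

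**Figure D1:**
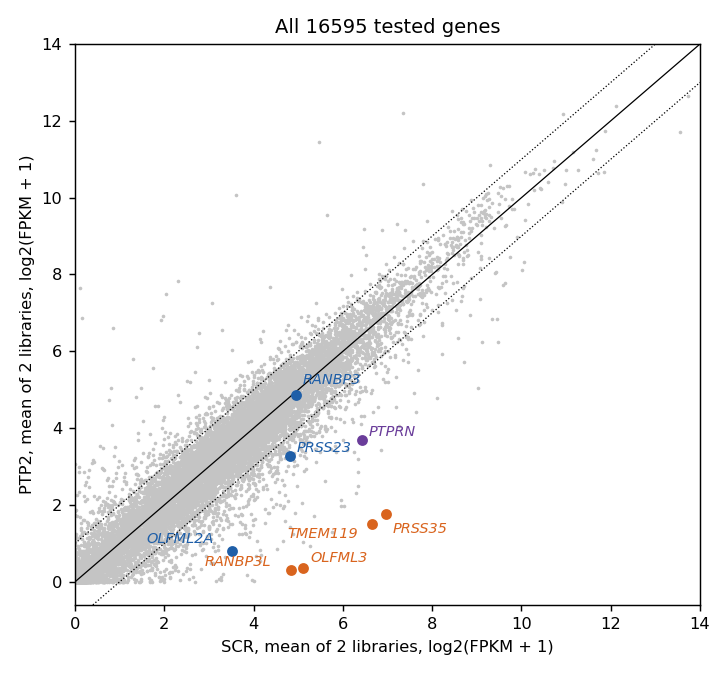
Mean FPKM of every tested gene in SCR (horizontal axis) against PTP2 (vertical axis), on log2(FPKM + 1) scales, with the 4 genes, PTPRN and the relatives OLFML2A, PRSS23 and RANBP3 named and dotted lines at 2-fold. PRSS35 and TMEM119 lie farthest to the right of the 4 (123.5 and 99.7 FPKM in SCR), and OLFML3 and RANBP3L lie at the bottom (0.28 and 0.245 FPKM in PTP2), while RANBP3 lies by the diagonal.

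Over the 4 libraries, PRSS35 and TMEM119 were the closest genes to each other, and so were OLFML3 and RANBP3L. Likeness was measured as the Euclidean distance between log2(FPKM + 1) values, which takes in both level and difference. The distance was 0.67 between PRSS35 and TMEM119 and 0.41 between OLFML3 and RANBP3L. The next genes after PRSS35's partner were PLAT, the tissue plasminogen activator (distance 1.22), and IGFBP4, a binding protein of insulin-like growth factors (1.36). TMEM119 was followed by WISP1, a secreted matrix-associated protein (1.22), and the receptor MRGPRF (1.27). OLFML3 was followed by CNN1 (0.85) and the chitin-binding FIBCD1 (0.98), and RANBP3L by LFNG, a modifier of Notch receptors (0.91), and CNN1 (1.03). With 4 libraries in 2 groups this ranks genes mainly by their level in each group. The 4 genes were chosen for large falls in these same values, so that their closeness to each other follows largely from that choice.

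The 4 genes lie on 4 chromosomes. The authors' positions, which match GRCh38, place PRSS35 at chr6:83512475-83525704 on the plus strand and TMEM119 at chr12:108589846-108598118 on the minus strand. OLFML3 is at chr1:113979391-113982254 on the plus strand, and RANBP3L is at chr5:36246919-36301909 on the minus strand. No other GENCODE gene overlaps any of these spans (0 of 4 genes). The longest protein-coding GENCODE transcripts are a 2-exon transcript of 2440 bases for PRSS35, a 2-exon transcript of 2707 bases for TMEM119, a 3-exon transcript of 1961 bases for OLFML3 and a 14-exon transcript of 3104 bases for RANBP3L. Their coding parts span 1239, 849, 1035 and 1395 bases.

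The start regions of 3 of the 4 genes were in the RefSeq promoter table used here (GRCh38.p14), and they are shown as a description. The shared fall of these genes follows from how they were chosen. Windows of 250 bases before the RefSeq start were searched on both strands for common motifs, which were chosen after the sequences had been read. These were the TATA box (TATAAA), the CCAAT box, the GC box (GGGCGG), the AP-1 motif (TGANTCA), the TEAD motif (GGAATG) and the SMAD-binding CAGA box (CAGACA). Each sequence is printed 5′ to 3′ on the gene's strand, as far as it lies outside the gene span of the authors and of GENCODE, with matches in capitals. The spans printed are chr6:83512284-83512474 for PRSS35 (plus strand), chr1:113979224-113979390 for OLFML3 (plus strand) and chr5:36302115-36302152 for RANBP3L (minus strand).
PRSS35: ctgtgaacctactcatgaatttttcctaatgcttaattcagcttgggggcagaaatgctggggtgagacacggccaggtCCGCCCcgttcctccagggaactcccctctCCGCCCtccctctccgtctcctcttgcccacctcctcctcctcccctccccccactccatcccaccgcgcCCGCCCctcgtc
OLFML3: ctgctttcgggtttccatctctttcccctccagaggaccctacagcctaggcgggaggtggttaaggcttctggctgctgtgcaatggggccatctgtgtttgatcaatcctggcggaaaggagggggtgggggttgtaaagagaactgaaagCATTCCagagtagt
RANBP3L: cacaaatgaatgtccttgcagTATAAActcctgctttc
The 3 windows differed in composition. Of the 250 bases of each window, 59 (PRSS35), 83 (OLFML3) and 212 (RANBP3L) lie within the gene's own span. That of PRSS35 had a GC content of 65.2% with 14 CpG dinucleotides and held 3 GC boxes, all within the printed span. That of OLFML3 had a GC content of 57.6% with 6 CpG dinucleotides and held 1 GC box, which is past the printed span, and 1 TEAD match. That of RANBP3L had a GC content of 42.4% with 1 CpG dinucleotide, which mostly describe sequence inside the gene span. It held the TATAAA letters at -229 from the RefSeq start and, past the printed span, the CCAAT letters at -99. Over 15843 promoters of protein-coding genes the median GC content was 62.4% and the median number of CpG dinucleotides 17. In these promoters a GC box occurred in 56.0%, a CCAAT box in 34.5%, a CAGA box in 11.5%, a TEAD match in 10.1%, a TATA box in 9.23% and an AP-1 match in 5.04%. No motif was found in all 3 windows, and the AP-1 and CAGA letters were in 0 of 3.

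To set relatives of the 4 genes beside the rest of the transcriptome, limma was run on the log2(FPKM + 1) values of the 16595 genes that were not at 0 throughout. Genes were called at 2-fold or more with a Benjamini-Hochberg adjusted p of at most 0.001. These are the numeric cut-offs of the study, but the fold was taken here on the log2(FPKM + 1) scale. That scale understates the change of low genes, so that some with an FPKM ratio above 2 were not called. VWF, for example, had a ratio of 17.4 (limma, adjusted p = 0.000399) and was not called. The rule called 6.69% of all genes (1111 of 16595), with 437 higher (2.63%) and 674 lower (4.06%) in PTP2. At an adjusted p of at most 0.05 with no minimum fold change, 57.9% of genes passed, 30.8% higher and 27.1% lower, and this share is the background for the counts at 0.05. The median log2 fold change over all genes was 0.01. The stricter rule called 0 genes when any 1 library was left out, with a pseudocount of 0.1 or with the replicate number as a block, whereas the 2-fold rule with an adjusted p of at most 0.05 called 1296 genes with all libraries, 1224 to 1256 with 1 left out, 2419 with that pseudocount and 1296 with the block. For 1 gene on its own, permuting 2 libraries against 2 gives no exact two-sided p below 0.333, so that calls rest on the spread shared across genes in limma.

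Of the other olfactomedin family genes, 2 of the 11 tested were called (18.2%, against 6.69% of all genes), both lower. OLFML2A, a secreted matrix protein like OLFML3, had FPKM values of 10.3 and 10.4 in SCR and of 0.71 and 0.78 in PTP2. It fell with a log2 fold change of -2.70 (SE 0.035, adjusted p = 0.000149), which leaves 0.745 ± 0.0495 (SD, n = 2) of 10.4 ± 0.0495 FPKM. ADGRL1, the latrophilin adhesion receptor, had values of 5.57 and 5.29 in SCR and of 1.78 and 1.74 in PTP2, with a log2 fold change of -1.22 (SE 0.037, adjusted p = 0.000342).

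OLFML2B, the close relative of OLFML2A, had values of 4.53 and 4.86 in SCR and of 3.70 and 3.47 in PTP2. Its log2 fold change of -0.31 passed only the looser threshold (adjusted p = 0.00968). OLFML1 was close to 0 in every library, with 0 and 0.07 in SCR and 0.07 and 0.03 in PTP2. Myocilin (MYOC), an olfactomedin protein of the eye, had 0.26 and 0.28 in SCR and was listed at 0 in both PTP2 libraries. In all, 5 of the 11 olfactomedin genes passed an adjusted p of 0.05, all lower, against 57.9% of all genes. The list's median log2 fold change was -0.04, and 7 of the 11 were below 1 FPKM in every library. The loss of OLFML3 thus lay beside a fall of OLFML2A and a much smaller difference in OLFML2B.

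RANBP3, the ubiquitous relative of RANBP3L that serves the exportin XPO1 and the export of SMAD2 and SMAD3, did not share its loss. It had FPKM values of 30.7 and 29.03 in SCR and of 27.6 and 28.4 in PTP2, and its log2 fold change was -0.09 (SE 0.043, adjusted p = 0.158). In SCR the level of RANBP3L (27.7) was thus close to that of RANBP3 (29.9), and in PTP2 RANBP3 stood at 28.0 against 0.245 for RANBP3L. Of 12 genes of RANBP3 and Ran transport, 0 were called by limma (6.69% of all genes were), and 0 again with 2-fold and an adjusted p of at most 0.05. At 0.05 with no minimum fold change 9 of the 12 passed, against 57.9% of all genes. Of these, 8 were higher and RANBP9 was lower, and the list's median log2 fold change was 0.37. RAN, the GTPase that drives nuclear transport, had 159 and 151 in SCR and 224 and 216 in PTP2 (log2 fold change 0.50, adjusted p = 0.00200).

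PRSS23, the serine protease most closely related to PRSS35, was lower too, but by far less. It had FPKM values of 27.0 and 27.2 in SCR and of 8.13 and 9.35 in PTP2, and it fell with a log2 fold change of -1.53 (SE 0.072, adjusted p = 0.000591). PRSS3, a trypsinogen gene, rose from 6.15 and 5.06 to 70.1 and 65.5 (log2 fold change 3.39, SE 0.098, adjusted p = 0.000331). Its reads can be split with near-identical trypsinogen genes, of which PRSS1 and PRSS2 had no value in the files, so that its level is uncertain. PRSS23 and PRSS3 were the 2 genes called of 8 tested PRSS genes (25%, against 6.69% of all genes). The other 6 had log2 fold changes from -0.29 to 0.08 and did not pass an adjusted p of 0.05.

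**Figure D2:**
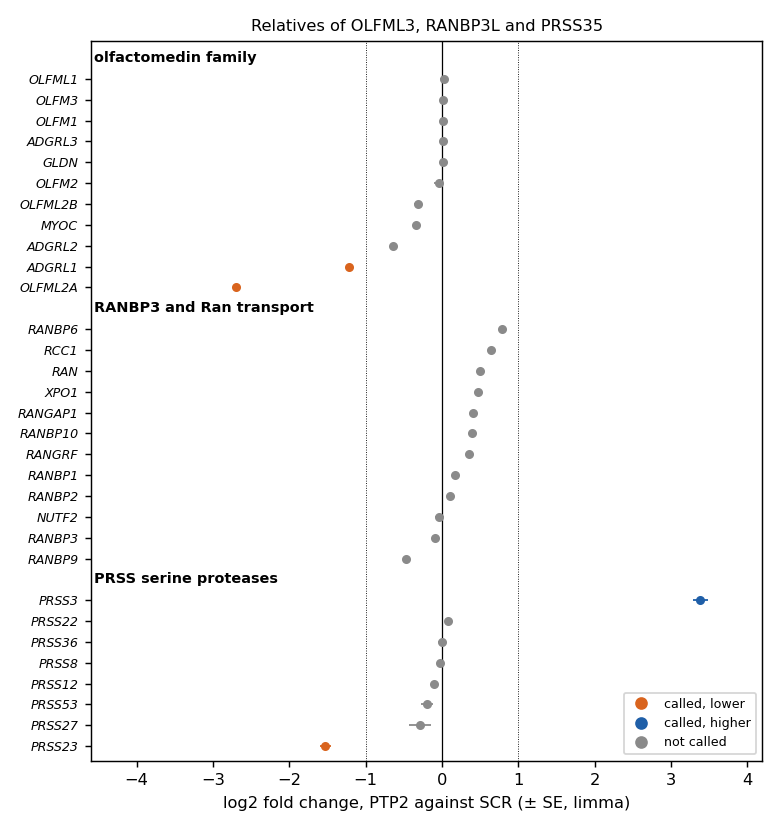
Log2 fold change (PTP2 against SCR) with its SE from limma for the olfactomedin, RANBP3 and Ran, and PRSS genes, with called genes in colour and dotted lines at 2-fold. Called genes are OLFML2A (-2.70), ADGRL1 (-1.22), PRSS23 (-1.53) and PRSS3 (3.39), while RANBP3 is at -0.09.

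OLFML3 and RANBP3L were both described as acting on BMP signalling, outside and inside the cell, and other genes of this pathway were called in both directions. Of 18 tested BMP ligands and extracellular regulators, 6 were called (33.3%, against 6.69% of all genes), 3 higher and 3 lower. The median log2 fold change of the list was -0.03. At 0.05, 12 of the 18 passed, 6 in each direction, against 57.9% of all genes. Among the ligands, BMP2 rose from 2.91 and 2.94 to 16.8 and 18.3 FPKM (log2 fold change 2.24, SE 0.052, adjusted p = 0.000249). GDF5, a ligand of joint formation, rose from 3.27 and 3.48 to 9.91 and 9.15 (1.27). BMP4 was at most 0.18 in any library.

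Of the proteases and their cofactors, BMP1 and PCOLCE were called, both lower, while the tolloid-like TLL1 and TLL2 were at most 0.14 FPKM in any library. BMP1, the procollagen protease that OLFML3 was described as bringing to chordin, fell from 53.0 and 50.9 to 18.5 and 17.9 FPKM (log2 fold change -1.47, SE 0.039, adjusted p = 0.000300). PCOLCE, which enhances procollagen cleavage by BMP1, fell from 206 and 191 to 22.6 and 18.5 (-3.22). Chordin itself (CHRD) had no value in any library. Of the inhibitors, CHRDL1, a chordin-like protein, fell from 3.21 and 3.38 to 0.42 and 0.48 (-1.57). Gremlin (GREM1) rose from 93.9 and 99.8 to 215 and 216 (1.15). FSTL1, a secreted modulator of BMP signalling with 141 and 142 in SCR, had 85.5 and 84.6 in PTP2, and its log2 fold change of -0.73 (adjusted p = 0.000460) did not reach 2-fold.

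Of 19 receptors, SMADs and targets, 2 were called (10.5%, against 6.69% of all genes), and both were ID genes. ID2 fell from 24.9 and 29.1 to 1.81 and 1.52 FPKM (log2 fold change -3.39, SE 0.101, adjusted p = 0.000338). ID3 rose from 3.5 and 3.42 to 8.90 and 7.86 (1.07, SE 0.066, adjusted p = 0.000940), close to both thresholds, and with median-ratio scaling between libraries it was no longer called. ID1 had 4.56 and 4.51 in SCR and 4.71 and 6.85 in PTP2, and it did not differ at 0.05 (adjusted p = 0.258). At 0.05 with no minimum fold change 13 of the 19 passed, 3 higher and 10 lower, against 57.9% of all genes. The list's median log2 fold change was -0.19. The 3 SMADs that RANBP3L exports differed in direction. SMAD1 had 12.2 and 13.5 in SCR and 5.16 and 6.09 in PTP2 (-1.06, adjusted p = 0.00218), which missed the stricter threshold, and SMAD5 had 11.5 and 11.4 in SCR and 14.6 and 15.8 in PTP2 (0.38, adjusted p = 0.00550). SMAD9 was low, with 0.59 and 0.44 in SCR and 0.26 and 0.31 in PTP2 (-0.24, adjusted p = 0.0405). BAMBI, a decoy receptor of the pathway, had 2.08 and 2.45 in SCR and 0.60 and 0.27 in PTP2 (-1.19, adjusted p = 0.00424), and SMAD1 and BAMBI were both called when genes under 1 FPKM were left out. The receptor ACVR1, with 26.4 and 25.6 in SCR and 23.7 and 23.8 in PTP2, was nearly level (-0.13).

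TMEM119 is known from osteoblasts, and 2 of 13 tested osteoblast genes were called (15.4%, against 6.69% of all genes), both lower. These were the type I collagen chains. COL1A1 had FPKM values of 525 and 515 in SCR and of 31.3 and 33.2 in PTP2 (log2 fold change -3.97, SE 0.042, adjusted p = 0.000133). COL1A2 had 801 and 794 in SCR and 217 and 218 in PTP2 (-1.87, SE 0.029, adjusted p = 0.000158). Both genes are also strongly expressed outside bone.

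The osteoblast transcription factor RUNX2 had 5.52 and 5.56 in SCR and 4.72 and 4.66 in PTP2, a log2 fold change of -0.20 (adjusted p = 0.00736). Its partner in the lineage, SP7, was at or below 0.04 in every library, and the bone-specific BGLAP had 1.09 and 0.76 in SCR and was listed at 0 in PTP2. At 0.05, 9 of the 13 genes passed, 8 of them lower, against 57.9% of all genes. The list's median log2 fold change was -0.23. In the authors' Gene Ontology column TMEM119 carries positive and RANBP3L negative regulation of osteoblast differentiation. Without the 4 genes, osteoblast differentiation had 12 of 101 genes called, 3 higher and 9 lower. This is 11.9%, against 6.69% of all genes (2.63% higher and 4.06% lower). PRSS35 and OLFML3 share the term extracellular region, where 355 of 3573 other genes were called (9.94%, against the same 6.69%), 122 higher and 233 lower.

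**Figure D3:**
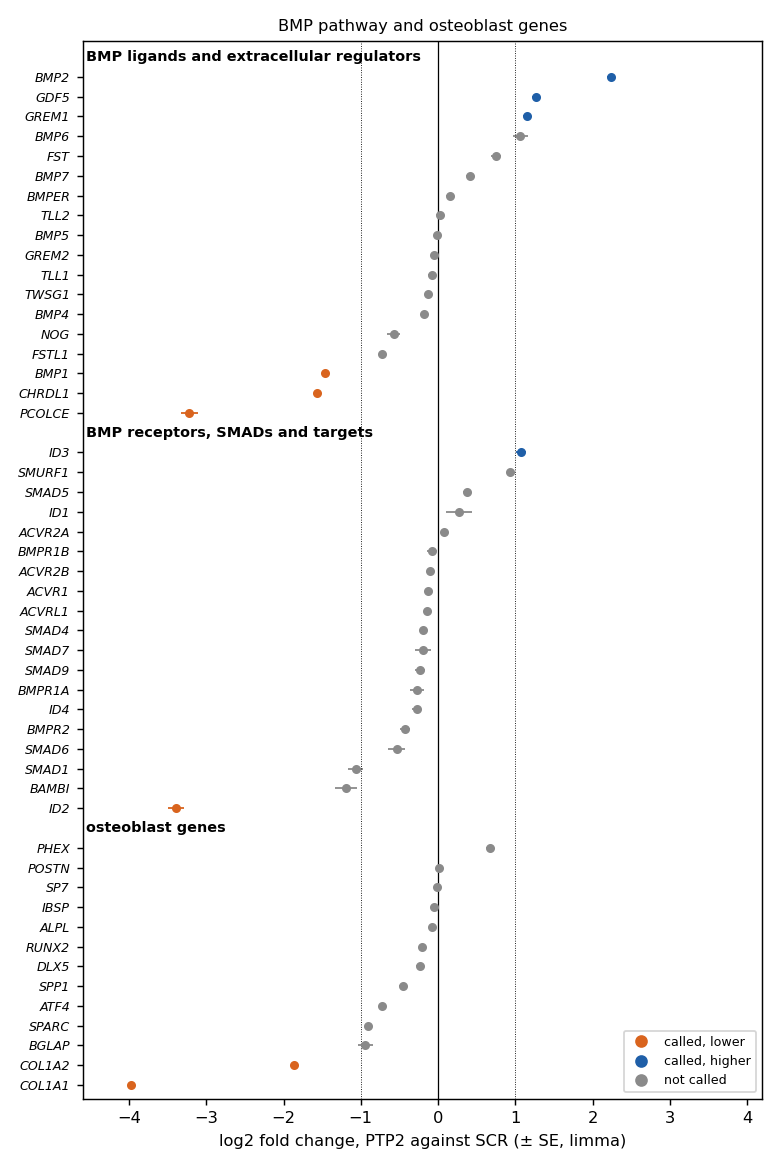
Log2 fold change (PTP2 against SCR) with its SE from limma for BMP ligands and extracellular regulators, for BMP receptors, SMADs and targets, and for osteoblast genes, with called genes in colour. Called genes lie on both sides of 0 among ligands and regulators, from PCOLCE (-3.22) to BMP2 (2.24), and only COL1A1 (-3.97) and COL1A2 (-1.87) are called among osteoblast genes.

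TMEM119 and OLFML3 are used as microglial genes in brain tissue, so markers of that cell type were read in the same libraries. Of 15 microglia and macrophage markers, 7 had no value in any library, namely P2RY12, AIF1, TREM2, TYROBP, C1QA, C1QB and C1QC. CX3CR1 was listed at 0 in both SCR libraries. The summed FPKM of the list was 353 in both SCR libraries and 460 and 443 in PTP2, and the higher sum in PTP2 came from CD68, which other cell types express in their lysosomes. Without CD68 the list summed to 123 and 122 in SCR and to 102 and 103 in PTP2. CD68 had 230.3 and 231 in SCR and 357 and 339.9 in PTP2. None of the 8 tested markers was called by limma, against 6.69% of all genes. At an adjusted p of 0.05, 3 passed, with CD68 higher and CSF1R and SALL1 lower, against 57.9% of all genes. At 2-fold with an adjusted p of at most 0.05, 0 were called as well.

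Of 10 tested markers of fibroblasts and pericytes, 5 were called (50%, against 6.69% of all genes), all lower. The median log2 fold change over the list was -0.99. At 0.05, 9 of the 10 passed, 7 lower and 2 higher, against 57.9% of all genes. Besides LUM the called markers were DCN (-1.81), PDGFRB (-1.60), FAP (-1.35) and ANPEP (-1.29). The markers that were higher at 0.05 were PDGFRA (0.61, adjusted p = 0.00315) and MCAM (0.40, adjusted p = 0.00185). Neither reached 2-fold on the log2(FPKM + 1) scale, though the plain FPKM ratio of PDGFRA was 2.26. The summed FPKM of the list was 161 in both SCR libraries and 67.1 and 65.7 in PTP2. Its part in the loss of the 4 genes was not tested.

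Endothelial markers were low throughout, with a summed FPKM of 4.03 to 4.77 over the libraries and 8 of the 10 tested below 1 FPKM in each. CDH5 and CLDN5 were at most 0.03, and PECAM1 had 2.39 and 2.5 in SCR and 1.21 and 1.26 in PTP2. None of the 10 was called by limma at 2-fold on the log2(FPKM + 1) scale, either at 0.001 (6.69% of all genes) or at 0.05. At 0.05 with no minimum fold change 5 passed, 3 higher and 2 lower, against 57.9% of all genes. Among these VWF had 0.98 and 0.93 in SCR and 0.06 and 0.05 in PTP2 (-0.89, adjusted p = 0.000399), and ERG had 0.07 in both SCR libraries and 0.68 and 0.94 in PTP2 (0.75, adjusted p = 0.00343). Of the astrocyte and neuronal markers 2 of 8 were called (25%, against 6.69% of all genes), SYP higher and SNAP25 lower. The astrocyte marker GFAP was at most 0.55 FPKM. The summed FPKM of that list was 17.1 and 17.9 in SCR and 24.4 and 25.6 in PTP2. CDH5 and CLDN5 of endothelium and P2RY12, TREM2 and CX3CR1 of microglia were thus near 0 or without a value in all libraries.

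Genes beside the 4 on their chromosomes were read to see how far the loss reached. The nearest 2 measured genes on each side of each gene make 16 neighbours, of which 1 was called (6.25%, against 6.69% of all genes). Their log2 fold changes ran from -1.41 to 0.97 with a median of 0.27. The called neighbour was NADK2, a mitochondrial NAD kinase, which lies 4639 bases from RANBP3L on the same strand. NADK2 had FPKM values of 23.1 and 24.1 in SCR and of 8.40 and 8.06 in PTP2, and it fell with a log2 fold change of -1.41 (SE 0.040, adjusted p = 0.000323). SLC1A3, the next measured gene on the other side of RANBP3L, was higher in PTP2 (0.67, adjusted p = 0.000825) without reaching 2-fold.

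HIPK1, a protein kinase gene that ends 1521 bases before OLFML3, had 10.7 and 10.8 in SCR and 15.3 and 15.6 in PTP2 (log2 fold change 0.48, adjusted p = 0.000986). DCLRE1B, 65304 bases from OLFML3 on the same side, had 6.4 and 6.81 in SCR and 13.84 and 14.01 in PTP2. Its plain FPKM ratio was 2.108. On the log2(FPKM + 1) scale its log2 fold change of 0.9732 fell short of 2-fold (limma, adjusted p = 0.0004865), so that it was not called. Beside PRSS35, the gene of malic enzyme, ME1, had 1.03 and 1.02 in SCR and 0.03 and 0 in PTP2. Its log2 fold change of -0.997 lay just short of 2-fold on this scale (adjusted p = 0.000359), and with median-ratio scaling it was called. The pseudocount of 1 understates the change of so low a gene, and with 0.1 it was -3.30. ME1 lies 81255 bases from PRSS35. Beside TMEM119, ISCU, which serves iron-sulfur cluster assembly, had 35.1 and 37.1 in SCR and 30.9 and 31.7 in PTP2 (-0.20, adjusted p = 0.0221). SELPLG, the P-selectin ligand on the other side of TMEM119, had 2.84 and 2.75 in SCR and 2.25 and 2.31 in PTP2 (-0.21).

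**Figure D4:**
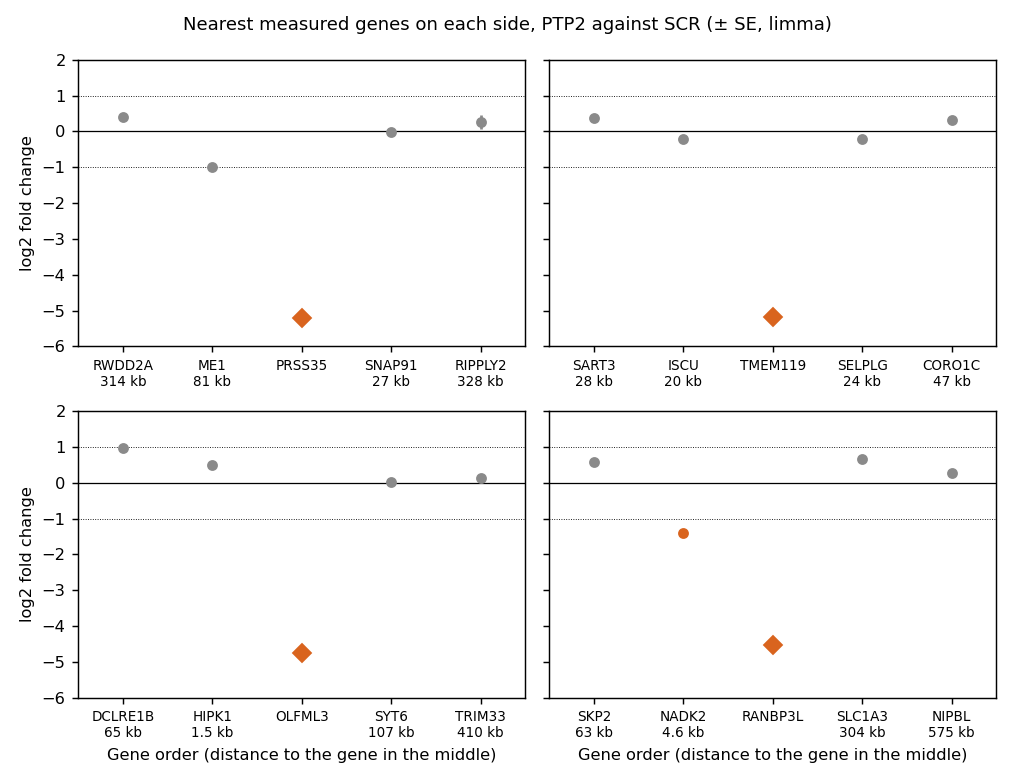
Log2 fold change (PTP2 against SCR) of each of the 4 genes (diamonds) and of the nearest 2 measured genes on each side in chromosome order (points, with the SE from limma), with distances in kb and dotted lines at 2-fold. NADK2 beside RANBP3L (-1.41) is the only called neighbour, while ME1 beside PRSS35 (-0.997) and DCLRE1B beside OLFML3 (0.9732) lie close to the lines.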

How the data were processed

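RNA of 4 U87 libraries (2 PTP2, 2 SCR, grouped by their titles) was read on a BGISEQ-500 (single-end, 50 bases). That PTP2 stands for shPTPRN-2 was inferred from the titles and the hairpin names of the study. The authors deposited 1 FPKM value for each gene in each library. The submitters' processing notes name HISAT2 (2.1.0) and hg19, while the gene positions in the files match GRCh38. The counting program and its use of strand are not given in the sources used here. No read counts were used. FPKM × transcript length changes in steps of 1 read in low genes, and 73.6% to 76.1% of low values lay within 0.2 of whole reads. Depth and reads per gene were estimated from these steps, with the authors' longest transcript length of each gene, and are approximate. A further 17 columns, which hold the authors' means, fold changes and p-values, were not used.

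Of 19314 listed genes, 2719 had no value above 0. The other 16595 were fitted with limma (3.58.1, R 4.3.3) on log2(FPKM + 1), with group as the only term, and p-values were adjusted by Benjamini-Hochberg over all of them. The script was tested on simulated data. The members and lists were chosen with earlier results of these data known. Genes named are the 4 genes, called and most abundant genes of each list, relatives, neighbours, the nearest genes by distance and those next in the order of falls. MYOC, ID1, SMAD1, SMAD5, SMAD9, BAMBI, TLL1, TLL2, BMP4, CHRD, RUNX2, SP7, BGLAP, RAN, MAGEB17, RCAN2 and TENM2 were named after their values were seen. Marker genes named beyond the called and most abundant were chosen in the same way. Alternatives were a pseudocount of 0.1, a filter at 1 FPKM in 2 libraries, quantile and median-ratio scaling, an eBayes trend, a replicate block, an adjusted p of 0.05 with 2-fold, and each library left out.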

Additional observations from a re-analysis of the deposited data

How the results depend on the processing

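The direction of the 4 genes held in every fit. A pseudocount of 0.1 moved their log2 fold changes to -5.63 (PRSS35), -5.75 (TMEM119), -6.51 (OLFML3) and -6.33 (RANBP3L). Median-ratio scaling moved PRSS35 to -5.25 and RANBP3L to -4.57, by more than their replicate spread. The strict rule (2-fold, adjusted p of at most 0.001) called 1111 genes, but 0 with a pseudocount of 0.1, with the replicate block and with any library left out, and the count was then 0 (range 0 to 0) in every list and among the neighbours. In the BMP receptor, SMAD and target list, 4 genes were called with the filter at 1 FPKM and 1 with median-ratio scaling, which called 2 neighbours. An adjusted p of at most 0.05 with 2-fold called 1296 genes. Combined with the other settings, which was added after these zeros had been seen, it called 1296 with the replicate block, 2419 with a pseudocount of 0.1 and 1224 to 1256 with 1 library left out. By this rule a pseudocount of 0.1 called 4 olfactomedin genes, 11 BMP ligands and regulators, 6 BMP receptors, SMADs and targets, 5 osteoblast genes and 3 neighbours, and with 1 library left out the neighbours called numbered 1 to 3, with 3 without SCR replicate 2. OLFML1, near 0 throughout, ran from -0.0275 without SCR replicate 1 to 0.0701 without SCR replicate 2, with -0.0062 without PTP2 replicate 1. Of 70 genes other than the 4 that were recomputed in each setting that kept them, no other changed sign. Of the 33 called among them, 32 kept their direction and passed the 0.05 rule in every fit, the exception being ID3. Genes given only by their level near 0 were not among the 70. The replicate number was no sign of a pairing (correlation of same-numbered deviations 0.0635 over 11272 genes). The cause of these changes was not tested. Depth limits the PTP2 values of OLFML3 (7 and 13 reads) and RANBP3L (20 reads) most.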

Other observations

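The authors' table assigns TMEM119 to Wnt signalling, by way of the KEGG orthologue K01064, which it names Wnt family member 9. The same orthologue is given to 199 tested genes, of which 1 has a symbol that starts with WNT9, and 9 of the 199 were called. Of 367 tested genes that the table assigns to Wnt signalling, 199 are there by this orthologue. Such assignments come from the files and were not used in any count above.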
